A study of Mus musculus with 20 samples.

Results

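The subunits of the mitochondrial oxidative phosphorylation complexes were followed in p19/Nras mouse liver cancer cells that differed in Trim33, in an added Myc vector or in exposure to hydroxyurea. Genes were taken by symbol, as those that begin with Nduf, Sdh followed by a to d, Uqcr, Cox4, Cox5, Cox6, Cox7, Cox8 or Atp5, together with Cyc1. This gave 97 genes, of which 96 were among the 13107 genes of the Myc experiment, 94 among the 11210 genes of the hydroxyurea experiment and 93 in both. All of them passed the filter on low counts. In the Myc experiment 36 of the 96 encode subunits of complex I, 4 of complex II, 8 of complex III, 14 of complex IV and 17 of complex V, and a further 12 are assembly factors that carry the same prefixes. The other 5 are near-identical gene copies or pseudogenes (Ndufb4b, Ndufb4c, Ndufs6b, Ndufa11b and Atp5c1-ps), whose reads may be split with the parent gene, so that both their values and those of Ndufb4, Ndufs6, Ndufa11 and Atp5c1 are uncertain. Cox6a2, Cox7a1 and Atp5md were taken only from the table of the Myc experiment, and Atp5s, a coupling factor-like protein that is no subunit, only from that of the hydroxyurea experiment.

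Oxidative phosphorylation makes ATP from the oxidation of NADH and succinate at the inner mitochondrial membrane. Complex I takes electrons from NADH and complex II from succinate, complex III passes them on to cytochrome c, complex IV hands them to oxygen, and complex V lets protons flow back through a rotating ring to make ATP. Nearly all subunits are encoded in the nucleus and imported, a small catalytic set is encoded in mitochondrial DNA, and dedicated assembly factors build the complexes. The liver is known for a high mitochondrial content, and Myc is known to act on many nuclear genes with mitochondrial products.

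The cells are an established line that the labels call p19KONras and assign to hepatocellular carcinoma. All groups carry the loss of p19 and the Nras oncogene. In the Myc experiment cells received a control guide (sgCtrl, WT below) or a guide against Trim33, which gave the lines KO1 and KO2, and then an empty pWZL vector (Ctrl) or a Myc vector. In the hydroxyurea experiment WT cells and cells with the Trim33 guide (KO, with no line number given) were left untreated (vehicle) or received 1 mM hydroxyurea (HU), which depletes nucleotides and slows replication, for 4 h. Trim33 is a ubiquitin ligase and transcriptional cofactor, and the study asked how its loss affects cells under replicative stress. Each of the 10 groups had 2 libraries, so each knockout is 1 line with 2 libraries. The labels do not say that the libraries came from separate cultures, so that p-values measure only the spread between these libraries, which may be technical.

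Library totals were 14753177 to 17949430 counts in the Myc experiment and 2315327 to 3082202 in the hydroxyurea experiment, so that the former gives the more precise values. Values below are counts scaled to a common library size (CPM) after scaling for library composition, and differences are log2 fold changes with their standard errors. A change was called where the adjusted p was below 0.01 (Myc experiment) or below 0.05 (hydroxyurea experiment) by edgeR's quasi-likelihood test with Benjamini-Hochberg adjustment over all genes. Trim33 stood at 246 and 258 CPM (WT Ctrl), 123 and 130.4 (KO1 Ctrl) and 201 and 207 (KO2 Ctrl), and at 131 and 155 CPM (WT Myc), 185 and 192 (KO1 Myc) and 124 and 125 (KO2 Myc). For Trim33 mRNA the libraries labelled WT Myc thus lay below those labelled KO1 Myc, those labelled KO1 Myc near KO2 Ctrl, and those labelled KO2 Myc near KO1 Ctrl. The same held for most other genes that differed between the lines. Of the 185 genes called between the 2 lines with the Ctrl vector and at least 8-fold apart, both libraries labelled KO1 Myc were nearer to KO2 Ctrl in 88.1% and 87.6%, and both labelled KO2 Myc were nearer to KO1 Ctrl in 94.1% and 90.8%; over all 2398 genes called between the lines the shares were 68.4% and 69.9%, and 68.6% in each. The levels of these libraries therefore go against their line labels, and whether the Ctrl or the Myc labels of the 2 lines are exchanged cannot be told apart here. The label WT Myc is uncertain too. Of 5091 genes called alike in both lines, its libraries were nearer to WT Ctrl in 51.4% and 46.0%. The shares were 30.3% and 29.3% for the libraries labelled KO1 Myc, and 20.6% and 25.8% for those labelled KO2 Myc. Every comparison with the libraries labelled WT Myc rests on that label. Groups with the Myc vector are named below as the libraries labelled WT Myc, KO1 Myc and KO2 Myc, and each response of a knockout line to the vector is given by label and also against the Ctrl libraries of the other line, an alternative chosen after seeing the data. A guide-made frameshift need not lower the mRNA, so these levels are no full check of the labels. In the hydroxyurea experiment Trim33 followed its labels, at 139.7 and 125 CPM (WT vehicle), 50.8 and 43.8 (KO vehicle), 142 and 139 (WT HU) and 50.9 and 52.2 (KO HU). Myc mRNA was at 433 and 439 CPM (WT Ctrl), 186 and 196 (KO1 Ctrl) and 210.3 and 218 (KO2 Ctrl), and at 456 and 458 CPM (WT Myc), 621 and 646 (KO1 Myc) and 459 and 499 (KO2 Myc). It was lower in both knockout lines than in WT with the Ctrl vector (−1.19 and −1.02). The Myc vector raised it in KO1 (1.73) and KO2 (1.16), and in WT the log2 fold change was 0.07 (adjusted p = 0.31). Of 10 hepatocyte markers only Afp was in the tables, and none of 4 endothelial markers. For the markers that were absent no level is known here. Markers of other cell types differed between the groups. The 6 fibroblast or stellate markers, collagens among them, summed to 185 CPM (WT Ctrl), 714 to 795 (KO1 Ctrl), 176 to 195 (KO2 Ctrl), 209 to 225 (WT Myc), 106 to 114 (KO1 Myc) and 717 to 732 (KO2 Myc). In KO1 Ctrl against WT Ctrl 4 of the 6 were higher and 1 lower, against 25.5% and 26.7% of all genes. In KO2 Ctrl 2 were higher and 2 lower, against 23.3% and 26.6%. For the Myc vector by label 1 was higher and 5 lower in KO1, against 17.9% and 18.2%. In KO2 5 were higher and 1 lower, against 20.2% and 18.6%. Afp was at 30.2 to 33.0 CPM (WT Ctrl), 0.798 to 0.92 (KO1 Ctrl) and 8.13 to 8.56 (KO2 Ctrl). In each line 3 of 4 hepatoblast or biliary markers were lower than in WT, against 26.7% of all genes in KO1 and 26.6% in KO2. In the hydroxyurea experiment the 3 fibroblast or stellate markers in the table summed to 57.5 to 64.7 CPM in the WT libraries and to 8.02 to 13.8 in the KO libraries. Afp stood there at 13.5 to 17.1 CPM (WT vehicle) and 25.2 to 25.4 (KO vehicle). The 4 hepatoblast or biliary markers summed to 2190 to 2500 CPM (WT vehicle) and 2690 to 3110 (KO vehicle). Both directions are opposite to those in the Myc experiment with the Ctrl vector. The part of these differences in the results on the subunits was not tested. In RNA from a bulk culture, fewer cells of one kind and less RNA per cell cannot be told apart.

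Promoter sequences are shown for 4 members whose levels in WT Ctrl lay apart from both knockout lines, Uqcrh and Atp5k (higher in both) and Atp5g1 and Ndufaf4 (lower in both). They are from RefSeq on GRCm38.p6, run from 250 bases before to 50 bases after the annotated start, and are written 5′ to 3′ along the gene. Capitals mark the core motif of NRF1 (GCGCATGC, runs of overlapping matches included), the ETS motif (CCGGAAG or its reverse complement CTTCCGG) and the E-box (CACGTG). The Uqcrh window lies on the minus strand at chr4:116075021-116075320, that of Atp5k on the minus strand at chr5:108434350-108434649, that of Atp5g1 on the minus strand at chr11:96075582-96075881 and that of Ndufaf4 on the plus strand at chr4:24897833-24898132.
Uqcrh: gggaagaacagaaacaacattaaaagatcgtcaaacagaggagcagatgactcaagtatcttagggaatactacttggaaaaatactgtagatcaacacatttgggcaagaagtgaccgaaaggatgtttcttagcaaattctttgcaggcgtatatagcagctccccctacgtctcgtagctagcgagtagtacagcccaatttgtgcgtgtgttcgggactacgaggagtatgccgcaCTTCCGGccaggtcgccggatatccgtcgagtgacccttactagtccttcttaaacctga
Atp5k: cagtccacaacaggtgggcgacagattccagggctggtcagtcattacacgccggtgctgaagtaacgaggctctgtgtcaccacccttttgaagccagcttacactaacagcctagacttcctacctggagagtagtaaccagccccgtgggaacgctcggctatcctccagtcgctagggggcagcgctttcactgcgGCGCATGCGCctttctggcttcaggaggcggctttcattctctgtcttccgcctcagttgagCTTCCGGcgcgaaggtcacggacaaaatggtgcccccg
Atp5g1: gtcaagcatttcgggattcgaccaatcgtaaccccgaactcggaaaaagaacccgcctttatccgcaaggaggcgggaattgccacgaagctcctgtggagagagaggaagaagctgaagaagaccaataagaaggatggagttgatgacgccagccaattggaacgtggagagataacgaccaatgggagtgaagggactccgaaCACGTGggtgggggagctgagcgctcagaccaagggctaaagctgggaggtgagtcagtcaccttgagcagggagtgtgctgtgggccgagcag
Ndufaf4: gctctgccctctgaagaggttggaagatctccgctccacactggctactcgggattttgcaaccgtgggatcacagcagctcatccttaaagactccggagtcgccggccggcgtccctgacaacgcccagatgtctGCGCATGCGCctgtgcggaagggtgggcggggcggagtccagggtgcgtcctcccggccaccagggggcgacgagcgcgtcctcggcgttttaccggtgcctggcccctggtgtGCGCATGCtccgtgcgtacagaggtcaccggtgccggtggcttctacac
NRF1, the ETS factor GABP and YY1 are known regulators of nuclear genes with mitochondrial products, and Myc binds E-boxes. A promoter was at hand for 78 of the 97 members, 83 windows in all. On either strand the NRF1 core was found in 13.3% of these windows against 2.71% of all 32851 promoters in the table, the ETS motif in 24.1% against 8.86%, the YY1 motif (AAGATGG) in 14.5% against 6.34% and the E-box in 8.43% against 7.15%. These are counts of letters in a window and show no binding. Other members that were higher hold no ETS match (Sdha, Cox7b) and Sdhb, which was lower, holds 1, so that nothing about direction is read from the 4 windows.

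The members differed widely in level. Per kilobase of annotated exon (mm9), the median subunit level in WT Ctrl was 33.5 CPM per kb in complex I, 35.5 in complex II, 81.2 in complex III, 96.7 in complex IV and 72.8 in complex V. The length joins all annotated exons of a gene, 6883 bases in Ndufab1. It can exceed that of the mRNA and so lower the value, which makes ranks by this measure rough. The median of complex II rests on 4 genes, Sdhd among them. The highest were Atp5b, the catalytic beta subunit of complex V, at 437 and 426 CPM per kb in the WT Ctrl libraries, and Cox4i1, the common isoform of subunit 4 of complex IV, at 376 and 356. Cox5a, Atp5g2 and Ndufa4, the last first named as a complex I protein and later placed in complex IV, followed with means of 264, 234 and 227 CPM per kb. At the other end, Sdhd, a membrane anchor of complex II, stood at 0.3 to 1.2 CPM in all 12 libraries, Cox7a1, the muscle isoform of subunit 7a, at 0.3 to 0.9 CPM, and Cox6a2, the muscle isoform of subunit 6a, reached 4.5 CPM at most. In the hydroxyurea experiment Sdhd stood at 4.3 to 9.0 CPM, so that its level is uncertain. Whether its reads were lost in counting was not tested. The summed level of all subunits kept within 7861 and 9666 CPM over the 12 libraries of the Myc experiment and within 7687 and 8805 CPM over the 8 of the hydroxyurea experiment.

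In cells with the Ctrl vector, the loss of Trim33 went with changes of single subunits in both directions and with little change of the complexes as a whole. In KO1 against WT, 21 of the 96 members rose and 13 fell, against 25.5% of all genes higher and 26.7% lower. In KO2 against WT, 14 rose and 20 fell, where 23.3% of all genes were called higher and 26.6% lower. The share of members called, 35.4% in either line, was below the 52.2% and 49.9% of all genes, and the median log2 fold change was 0.05 in KO1 and −0.04 in KO2. The median size of the change was 0.23 in KO1 for members against 0.39 for all genes, and 0.19 against 0.38 in KO2. Both lines were set against the same WT Ctrl libraries, so that the values of KO1 and KO2 given side by side are not independent. Without 1 library in turn, 20 to 23 members were called in KO1 and 18 to 23 in KO2, as 20 and 18 without WT Ctrl replicate 1, 20 in KO1 without KO1 Ctrl replicate 1, and 20 and 21 in KO2 without KO2 Ctrl replicate 1 and replicate 2.

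By complex, the largest median was that of complex V in KO1, 0.18, with 6 of 17 subunits higher and 2 lower, and in KO2 it was 0.05, with 5 higher and 3 lower. Complex I had 6 of 36 subunits higher and 3 lower in KO1 (median 0.05), and 2 higher and 5 lower in KO2 (median −0.10). Complex II had 1 of 4 higher and 1 lower in KO1, and 1 higher and 2 lower in KO2. In complex III 2 of 8 rose and 2 fell in each line. In complex IV 3 of 14 rose and 3 fell in KO1, and 2 rose and 4 fell in KO2.

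**Figure D1:**
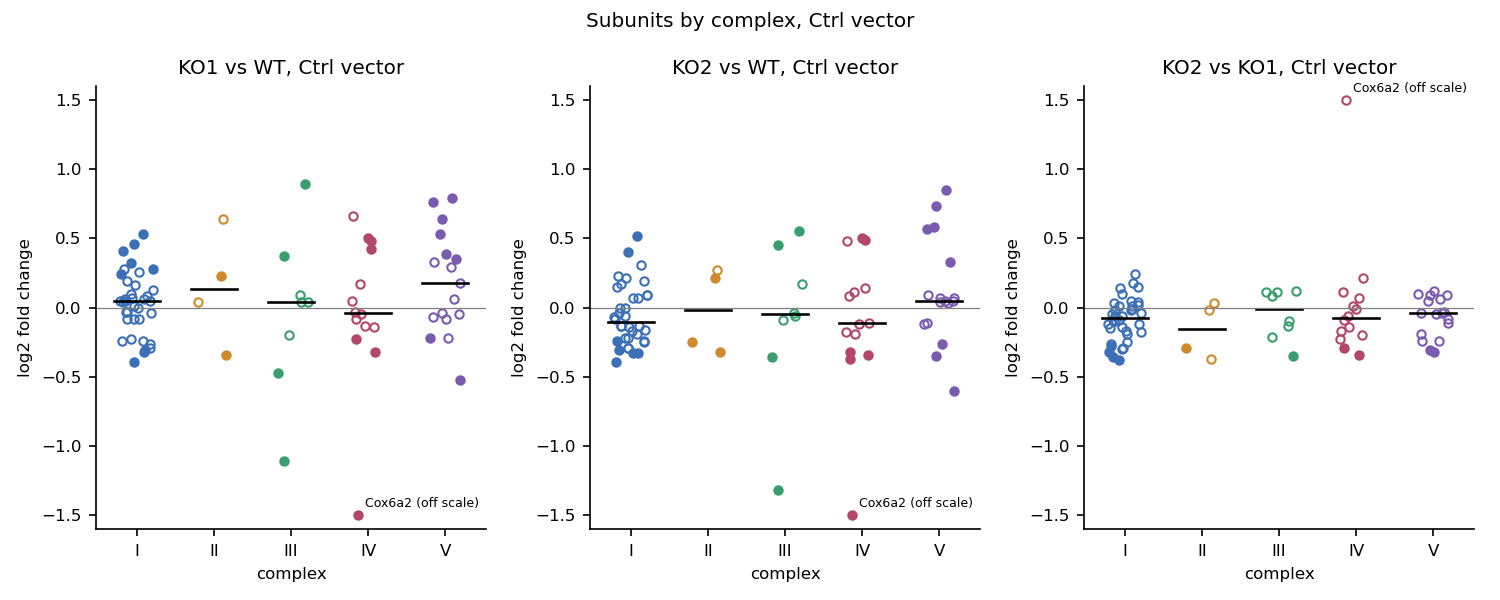
Log2 fold change (y axis) of each subunit in the Myc experiment with the Ctrl vector, by complex (x axis), for KO1 against WT, KO2 against WT and KO2 against KO1. Filled points passed an adjusted p below 0.01, open points did not, horizontal bars are medians and Cox6a2 lies beyond the drawn range. In each complex the points spread on both sides of 0, and the medians lie between −0.15 and 0.18.

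In complex V the alpha subunit of the F1 head, a stalk subunit and small membrane subunits were higher. Atp5a1, the alpha subunit of the catalytic F1 head, was at 423 and 397 CPM (WT Ctrl), 712 and 708 (KO1 Ctrl) and 744 and 733 (KO2 Ctrl). All 4 knockout libraries lay above both WT libraries, with a log2 fold change of 0.79 ± 0.0506 (adjusted p = 1.12e-09) in KO1 and 0.85 ± 0.0506 (adjusted p = 7.28e-10) in KO2. Atp5j (mm9 chr16:84828111-84835870), the F6 subunit of the peripheral stalk, stood at 71.7 and 64.9 CPM (WT Ctrl), 117 and 114 (KO1 Ctrl) and 101 and 101 (KO2 Ctrl). Here too the groups did not overlap, with differences of 0.76 ± 0.0676 (adjusted p = 6.4e-08) and 0.57 ± 0.0679 (adjusted p = 2.21e-06). Atp5k (mm9 chr5:108862263-108863467), subunit e of the membrane part, was at 18.2 and 18.4 CPM (WT Ctrl), 29.4 and 27.5 (KO1 Ctrl) and 26.7 and 34.0 (KO2 Ctrl), with differences of 0.64 ± 0.11 (adjusted p = 9e-05) and 0.73 ± 0.109 (adjusted p = 2.35e-05). The 2 KO2 libraries differed more for Atp5k than those of the other groups. Atp5mpl, the small 6.8PL subunit beside it in the membrane part, stood at 28.1 and 27.1 CPM (WT Ctrl), 41.3 and 38.2 (KO1 Ctrl) and 40.8 and 41.7 (KO2 Ctrl) and differed by 0.53 and 0.58 (adjusted p = 7.67e-05 and 3.17e-05).

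Other subunits of complex V went the other way. Atp5g1 (mm9 chr11:95930166-95936984), one of the genes for subunit c of the rotating ring, was at 59.2 and 59.9 CPM (WT Ctrl), 42.7 and 40.1 (KO1 Ctrl) and 38.3 and 40.3 (KO2 Ctrl). Both WT libraries lay above all 4 knockout libraries, with differences of −0.52 ± 0.0849 (adjusted p = 5.04e-05) and −0.60 ± 0.0852 (adjusted p = 1.45e-05). The related ring genes had smaller differences. Atp5g2 differed by −0.22 (adjusted p = 0.0134) in KO1 and by −0.26 (adjusted p = 0.0041) in KO2, the latter called but lost without any of WT Ctrl replicate 1, KO2 Ctrl replicate 1 or KO2 Ctrl replicate 2 (highest adjusted p = 0.0637), and Atp5g3 differed by −0.05 (adjusted p = 0.494) and 0.05 (adjusted p = 0.493). Atp5b, where ATP is made, stood at 1853 and 1803 CPM (WT Ctrl), 1784 and 1766 (KO1 Ctrl) and 1439 and 1420.0 (KO2 Ctrl). It did not pass in KO1 (−0.04, adjusted p = 0.485) and was lower in KO2 (−0.35 ± 0.051, adjusted p = 1.6e-05). The alpha and beta subunits of the same F1 head therefore differed from WT in opposite directions in KO2.

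In complex III, too, subunits differed in both directions. Uqcrh (mm9 chr4:115739570-115747676), the acidic hinge protein between cytochrome c1 and cytochrome c, was at 41.8 and 41.1 CPM (WT Ctrl), 80.8 and 73.2 (KO1 Ctrl) and 59.3 and 61.8 (KO2 Ctrl). The groups did not overlap, and the differences were 0.89 ± 0.0765 (adjusted p = 4.05e-08) in KO1 and 0.55 ± 0.0777 (adjusted p = 1.43e-05) in KO2. Uqcrq (mm9 chr11:53241424-53244333), the ubiquinone-binding protein QP-C, was at 129.8 and 131 CPM (WT Ctrl), 64.3 and 56.3 (KO1 Ctrl) and 51.3 and 53.3 (KO2 Ctrl). Both WT libraries lay above all 4 knockout libraries, with differences of −1.11 ± 0.128 (adjusted p = 1.22e-06) and −1.32 ± 0.129 (adjusted p = 2.3e-07). Uqcrc2 (mm9 chr7:127778690-127802992), a core protein of the matrix side, was at 218 and 206 CPM (WT Ctrl), 147 and 160.0 (KO1 Ctrl) and 165 and 166 (KO2 Ctrl) and differed by −0.47 ± 0.0569 (adjusted p = 2.39e-06) and −0.36 ± 0.0567 (adjusted p = 4.76e-05). Its partner Uqcrc1 (0.04, adjusted p = 0.593 and −0.06, adjusted p = 0.443) and the haem subunit Cyc1 (0.04, adjusted p = 0.573 and 0.17, adjusted p = 0.0256) did not pass.

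**Figure D2:**
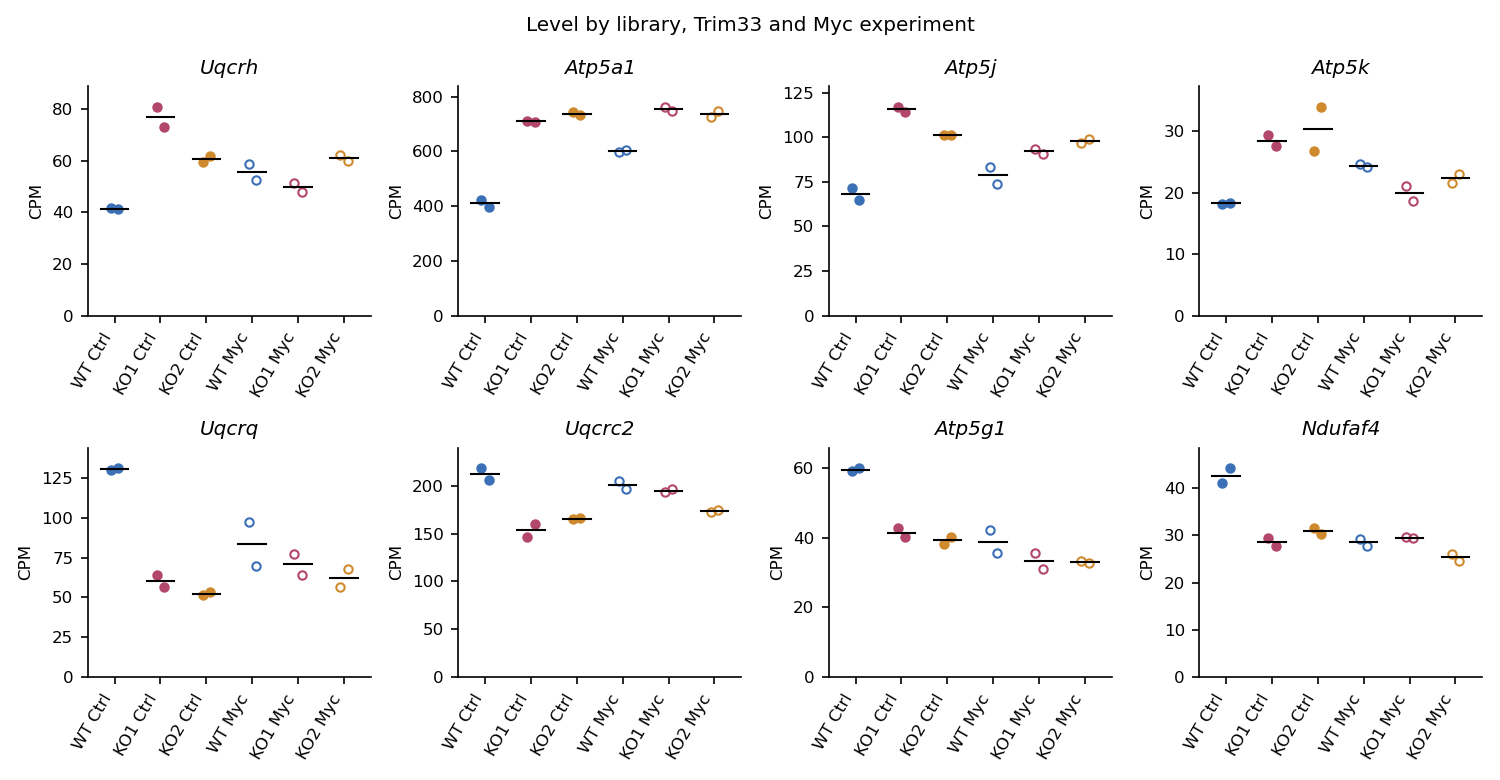
CPM (y axis, from 0) of 8 members in each library of the Myc experiment, by group (x axis); points are libraries (filled with the Ctrl vector, open with the Myc vector) and bars are means of 2. Uqcrh, Atp5a1, Atp5j and Atp5k are lowest in both WT Ctrl libraries and Uqcrq, Uqcrc2, Atp5g1 and Ndufaf4 are highest there.

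In complex IV, Cox6c and Cox7b, a pair of small membrane subunits, were higher in both lines. Cox6c was at 108 and 101 CPM (WT Ctrl), 149.8 and 147 (KO1 Ctrl) and 144 and 152 (KO2 Ctrl) and differed by 0.50 and 0.50 (adjusted p = 2.17e-06 and 2.75e-06). Cox7b differed by 0.42 and 0.49 (adjusted p = 2.27e-05 and 4.71e-06). The paralogs of subunit 7a split. The common isoform Cox7a2 was higher in KO1 (0.48 ± 0.073, adjusted p = 2.62e-05) and stood at 0.14 (adjusted p = 0.105) in KO2, and Cox7a2l, which joins complexes III and IV into supercomplexes, stood at −0.08 (adjusted p = 0.311) in KO1 and was lower in KO2 (−0.37 ± 0.0707, adjusted p = 0.000255). Cox4i1 did not pass in either (−0.05, adjusted p = 0.667 and −0.19, adjusted p = 0.0816). Cox5a differed by −0.23 and −0.32, and its call in KO1 was lost without any 1 of the 4 libraries (highest adjusted p = 0.0849) and in KO2 without WT Ctrl replicate 1 or KO2 Ctrl replicate 1 (highest adjusted p = 0.0176).

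Cox6a2 (mm9 chr7:135348950-135349880), the heart and muscle isoform of subunit 6a, had the largest ratio but very few reads. Its counts with the Ctrl vector were 55 and 66 (WT), 0 and 1 (KO1) and 2 and 4 (KO2), and with the Myc vector, by label, 7 and 4 (WT), 12 and 9 (KO1) and 2 and 1 (KO2). The summed counts of WT Ctrl, scaled for depth, were 127 times those of KO1 Ctrl (95% exact Clopper-Pearson interval 22.4 to 5060) and 21.5 times those of KO2 Ctrl (9.6 to 59.7), intervals that cover counting error only. Its common counterpart Cox6a1 was at 106 and 100.2 CPM (WT Ctrl), 95.3 and 91.9 (KO1 Ctrl) and 84.1 and 78.8 (KO2 Ctrl).

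In complexes I and II the called differences of subunits lay between −0.39 and 0.53. Of the core subunits of complex I, Ndufs1, the largest, was at −0.04 and −0.16 (adjusted p = 0.635 and 0.0442), and Ndufv1, which binds FMN and takes electrons from NADH, at 0.00 and −0.17 (adjusted p = 0.995 and 0.124), and none of these passed. Ndufa10, an accessory subunit, fell in KO1 (−0.31 ± 0.0566, adjusted p = 0.00016) at 106 and 105 CPM (WT Ctrl), 84.5 and 85.8 (KO1 Ctrl) and 99.7 and 93.5 (KO2 Ctrl), and stood at −0.13 (adjusted p = 0.0588) in KO2. Sdha, the flavoprotein of complex II that oxidises succinate, was higher by 0.23 and 0.21, and Sdhb, its iron-sulfur partner, was lower, at −0.34 and −0.32. All 4 of these calls were lost without at least 1 library: Sdha in KO1 without KO1 Ctrl replicate 2 (adjusted p = 0.01) and in KO2 without WT Ctrl replicate 1, WT Ctrl replicate 2 or KO2 Ctrl replicate 1 (highest 0.024), and Sdhb in KO1 without WT Ctrl replicate 1 or KO1 Ctrl replicate 2 (highest 0.0337) and in KO2 without any of the 4 (highest 0.041).

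Among the 12 assembly factors taken by the rule, 3 rose and 2 fell in KO1, and 2 rose and 4 fell in KO2. Ndufaf4 (mm9 chr4:24825230-24832148), an early assembly factor of complex I, was at 41.1 and 44.2 CPM (WT Ctrl), 29.3 and 27.7 (KO1 Ctrl) and 31.5 and 30.3 (KO2 Ctrl). Both WT libraries were above the 4 knockout libraries, with differences of −0.58 ± 0.0751 (adjusted p = 4.63e-06) and −0.46 ± 0.0743 (adjusted p = 4.84e-05). Ndufaf7, a methyltransferase that acts on a core subunit of complex I, rose in KO1 (0.57 ± 0.108, adjusted p = 0.000243), and Ndufaf2, a late assembly factor, rose in KO2 (0.63 ± 0.102, adjusted p = 6.12e-05).

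Over all 12 libraries of the Myc experiment, 16 of the 96 members (16.7%) had both WT Ctrl libraries below all 10 others, against 17.5% of all genes, and 8 (8.33%) had both above all others, against 19.6% of all genes. The 16 include Atp5a1, Atp5d, Atp5j, Atp5j2, Atp5k and Atp5mpl of complex V. The 8 include Ndufs1, Ndufv2, Uqcrc2, Uqcrq and Atp5g1.

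The 2 knockout lines also differed from each other with the Ctrl vector. In KO2 against KO1 none of the members was higher and 10 were lower, against 8.33% and 9.96% of all genes, with a median of −0.07; 26 members had an unadjusted p below 0.05, and DESeq2 also called 0 higher and 10 lower. Of the 10, 4 belong to complex I, 1 to complex II, 1 to complex III, 2 to complex IV and 2 to complex V. Atp5b was lower in KO2, at −0.31 ± 0.0509 (adjusted p = 0.000199), and this was the sole call that held without each of the 4 libraries in turn. Ndufa12, Ndufa13, Uqcrh and Cox7a2 differed by −0.38, −0.36, −0.35 and −0.34, with calls lost without any of the 4 libraries for Ndufa13 and without KO1 Ctrl replicate 1, KO2 Ctrl replicate 1 or KO2 Ctrl replicate 2 for the others (highest adjusted p = 0.0927, 0.0744, 0.0467 and 0.0359 in that order). The count fell to 1 without KO1 Ctrl replicate 1 or KO2 Ctrl replicate 2, to 2 without KO2 Ctrl replicate 1 and to 4 without KO1 Ctrl replicate 2. Fitted on the 2 lines alone, 21 members were called, 3 higher and 18 lower. The share of Trim33 mRNA that was left also differed between the lines, as given above, and its part in these differences was not tested.

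The response to the Myc vector was set out by genotype. In the libraries labelled WT Myc against WT Ctrl, 18 members rose and 4 fell, against 21.6% and 22.7% of all genes, with a median of 0.15 and 78 of 96 members above 0. By complex, the counts higher and lower were 3 and 0 in complex I (median 0.09), 1 and 0 in complex II (0.19), 1 and 1 in complex III (0.16), 5 and 1 in complex IV (0.18) and 6 and 1 in complex V (0.23). The median rests strongly on the libraries labelled WT Myc. Replicate 2 was lower than replicate 1 in 86 of 91 members of at least 5 CPM, by a median of −0.18, while the median over all genes was 0.013. Without replicate 1 the median was 0.06 and 14 members were called (8 higher and 6 lower), and without replicate 2 it was 0.24 and 47 were called (42 higher and 5 lower). Without WT Ctrl replicate 2, 11 were called. Members are short, with a median of 1240 exonic bases against 3561 in all genes with a length, and with the trend over exonic length taken off the median was 0.02; the part of this trend in the result was not tested.

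Of the 22 calls, 11 held without each library. Atp5a1 was at 423 and 397 CPM (WT Ctrl) and 597 and 606 (WT Myc), a rise of 0.55 ± 0.0505 (adjusted p = 1.86e-07). Atp5mpl was at 28.1 and 27.1 CPM (WT Ctrl) and 44.6 and 38.5 (WT Myc), a rise of 0.59 ± 0.0884 (adjusted p = 3.53e-05). Atp5d, the delta subunit of the central stalk, rose by 0.40, Ndufs6, an accessory subunit of complex I, by 0.47, Uqcrh by 0.43 and Ndufaf6, an assembly factor of complex I, by 0.72 (adjusted p = 6.41e-05, 0.000439, 0.000224 and 0.000358). The members that fell were Uqcrq, Atp5g1, Ndufaf4 and Cox6a2. All of these were also lower in both knockout lines with the Ctrl vector, and Atp5a1, Atp5mpl and Uqcrh were also higher there. Those comparisons share the WT Ctrl libraries with this one. Uqcrq was at 129.8 and 131 CPM (WT Ctrl) and 97.3 and 69.5 (WT Myc), a log2 fold change of −0.65 ± 0.124 (adjusted p = 0.000331), and the libraries labelled WT Myc differed from each other by about as much as replicate 1 did from WT Ctrl. Atp5g1 was at 59.2 and 59.9 CPM (WT Ctrl) and 42.1 and 35.5 (WT Myc), a log2 fold change of −0.62 ± 0.085 (adjusted p = 1.39e-05), and Ndufaf4 fell, at −0.58 ± 0.0746 (adjusted p = 7e-06). Cox6a2 had 11 counts over the libraries labelled WT Myc against 121 in WT Ctrl, which was 12.3 times higher after scaling (95% exact interval 6.66 to 25.4). Cox4i1 was called at 0.30 (adjusted p = 0.00983), but its 2 libraries labelled WT Myc stood at 344 and 269 CPM against 255 and 242 in WT Ctrl, and the call was lost without WT Ctrl replicate 1, WT Ctrl replicate 2 or replicate 1 labelled WT Myc (highest adjusted p = 0.173).

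By label, 3 members rose and 15 fell with the Myc vector in KO1, against 17.9% and 18.2% of all genes, with a median of −0.08. Of the falls, 4 were in complex I, 1 in complex II, 1 in complex III, 3 in complex IV and 5 in complex V, and 4 calls held without each library. Uqcrh was at 80.8 and 73.2 CPM (KO1 Ctrl) and 51.5 and 47.8 (KO1 Myc), a log2 fold change of −0.63 ± 0.0742 (adjusted p = 3.31e-06). Cox7a2 was at 87.8 and 83.1 CPM (KO1 Ctrl) and 63.4 and 58.2 (KO1 Myc), a log2 fold change of −0.49 ± 0.0722 (adjusted p = 3.58e-05). Sdhc was at 103 and 98.5 CPM (KO1 Ctrl) and 77.5 and 79.4 (KO1 Myc), a log2 fold change of −0.36 ± 0.0639 (adjusted p = 0.000205), and Uqcrc2 at 147 and 160.0 CPM (KO1 Ctrl) and 193 and 196 (KO1 Myc), a rise of 0.35 ± 0.0567 (adjusted p = 0.000105). In each of these the groups did not overlap. Atp5b fell, at −0.26 ± 0.0509 (adjusted p = 0.000602), and this was lost without KO1 Myc replicate 1 (adjusted p = 0.0105). Counts were 9 without KO1 Ctrl replicate 1, 10 without KO1 Ctrl replicate 2 and 9 without KO1 Myc replicate 2. Replicate 2 labelled KO1 Myc was lower than replicate 1 in 79 of 90 members, by a median of −0.11, and the part of this in the falls was not tested. Against KO2 Ctrl, whose levels the libraries labelled KO1 Myc resemble, 4 members were higher and 6 lower, with 15.3% and 14.3% of all genes, and the median was 0.01. Of the 15 falls 4 were called there too, in Uqcrh (−0.29), Atp5k, Ndufb3 and Atp5f1, and of the rises that of Uqcrc2 (0.23), while Cox7a2 was at −0.15 (adjusted p = 0.102), Sdhc at −0.07 (adjusted p = 0.396) and Atp5b at 0.06 (adjusted p = 0.391).

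In KO2, by label, 9 members were higher and 8 lower, against 20.2% and 18.6% of all genes, with a median of 0.01. Atp5b was at 1439 and 1420.0 CPM (KO2 Ctrl) and 1830.0 and 1859 (KO2 Myc), a rise of 0.37 ± 0.0509 (adjusted p = 1.89e-05), and Atp5d at 150.4 and 144 CPM (KO2 Ctrl) and 199 and 208 (KO2 Myc), a rise of 0.47 ± 0.0626 (adjusted p = 1.3e-05). Cox7a2l rose by 0.43 ± 0.0701 (adjusted p = 9.02e-05) and Ndufaf6 by 0.80 ± 0.131 (adjusted p = 9.53e-05). The falls that held without each library were those of Cox7b2, a paralog of Cox7b known from testis, at 26.3 and 27.2 CPM (KO2 Ctrl) and 15.5 and 14.8 (KO2 Myc) with a log2 fold change of −0.82 ± 0.0999 (adjusted p = 5.18e-06), and of Atp5f1, subunit b of the peripheral stalk (−0.39 ± 0.056, adjusted p = 2.76e-05). The count was 7 to 11 without 1 library in turn, as 9 without KO2 Ctrl replicate 1, 7 without KO2 Ctrl replicate 2, 11 without KO2 Myc replicate 1 and 10 without KO2 Myc replicate 2. Against KO1 Ctrl, 1 member was higher and 6 lower, with 13.6% and 15.2% of all genes, and the median was −0.07. The calls shared with those by label were Ndufaf6 (0.80), Cox7b2 (−0.60) and Atp5f1 (−0.27), while Atp5b was at 0.05 (adjusted p = 0.409), Atp5d at 0.15 (adjusted p = 0.066) and Cox7a2l at 0.14 (adjusted p = 0.109).

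**Figure D3:**
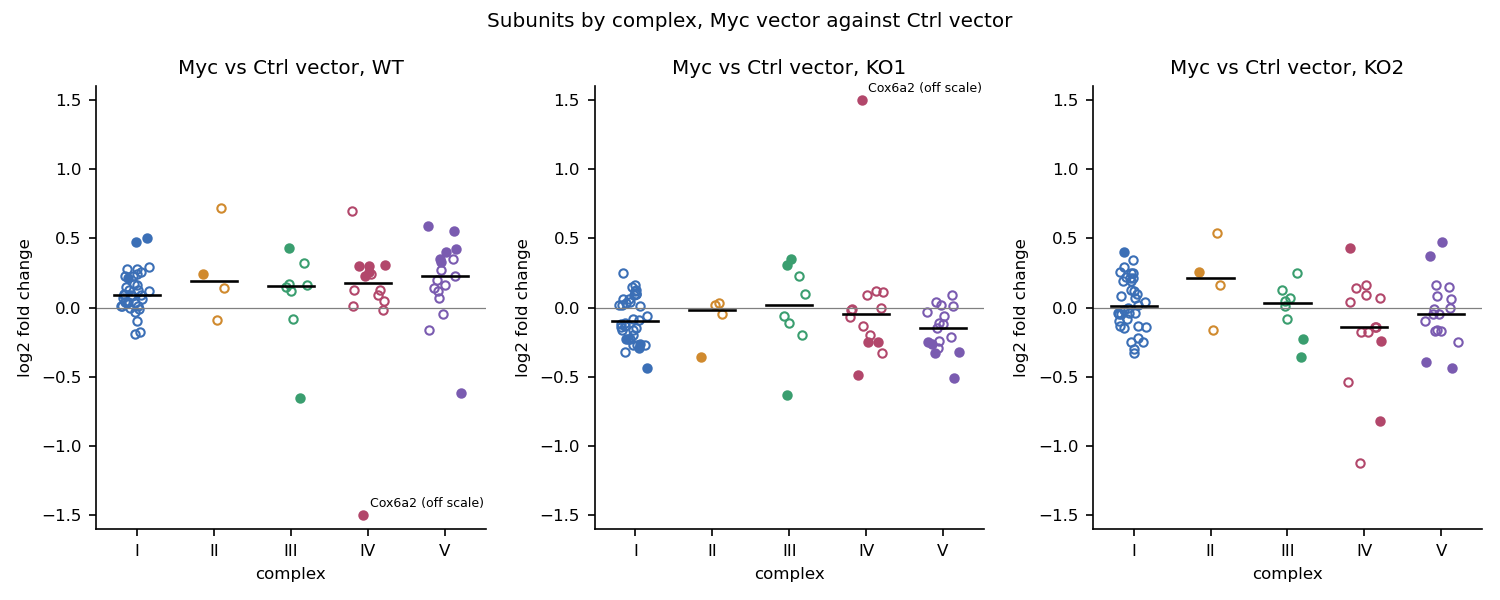
Log2 fold change (y axis) of each subunit for the Myc vector against the Ctrl vector, by complex (x axis), in the libraries labelled WT, KO1 and KO2. Filled points passed an adjusted p below 0.01, open points did not, bars are medians and Cox6a2 lies beyond the drawn range in WT and KO1. The complex V median is 0.23 in WT and −0.15 in KO1.

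Whether the response to the Myc vector differed by genotype was tested by the interaction, which by label would also hold the difference between the 2 lines if their labels are exchanged. For KO1, 27 members passed, 4 with a larger and 23 with a smaller log2 fold change than in WT, against 19.2% and 18.1% of all genes. For KO2, 17 passed, 2 larger and 15 smaller, against 16.6% and 16.2% of all genes. Both share the WT libraries, the Ctrl ones as well as those labelled WT Myc. Complex V held 10 of the 23 in KO1 and 5 of the 15 in KO2, and its median interaction was −0.40 and −0.20. Uqcrh had −1.06 ± 0.108 (adjusted p = 6.96e-07) in KO1, made of a rise of 0.43 in WT and a fall in KO1. Atp5k had −0.93 ± 0.154 (adjusted p = 0.00011) in KO1 and −0.86 ± 0.152 (adjusted p = 0.000238) in KO2, and stood at 18.2 and 18.4 CPM (WT Ctrl) and 24.6 and 24.2 (WT Myc), 29.4 and 27.5 CPM (KO1 Ctrl) and 21.2 and 18.7 (KO1 Myc) and 26.7 and 34.0 CPM (KO2 Ctrl) and 21.6 and 23.0 (KO2 Myc). Cox7a2 had −0.79 ± 0.103 (adjusted p = 9.79e-06) in KO1, and Sdhc −0.60 ± 0.0896 (adjusted p = 3.96e-05). Atp5a1 had −0.47 ± 0.0709 (adjusted p = 5.05e-05) and −0.55 ± 0.0709 (adjusted p = 1.01e-05), with a rise of 0.55 in WT and log2 fold changes of 0.09 and 0.00 in the knockout lines. Uqcrq had interactions of 0.88 ± 0.18 (adjusted p = 0.000726) and 0.90 ± 0.181 (adjusted p = 0.000746), and Ndufaf4 and Uqcrc2 of 0.63 and 0.43 in KO1 (adjusted p = 0.000143 and 0.000349). These calls held without each of the 8 libraries. Without replicate 1 labelled WT Myc the median interaction was −0.14 in KO1 and −0.02 in KO2, and without replicate 2 it was −0.33 and −0.21, with 43 and 30 members called. Without WT Ctrl replicate 2 the counts were 16 in KO1 and 8 in KO2. In KO1 the count was 16 without KO1 Ctrl replicate 1 and 17 without replicate 2 labelled KO1 Myc, and in KO2 it was 9 without KO2 Ctrl replicate 1.

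With the Ctrl libraries of the other line in the interaction, 4 members were larger and 16 smaller for the libraries labelled KO1 Myc, with 16.1% and 14.7% of all genes, and 2 larger and 15 smaller for those labelled KO2 Myc, with 14.8% and 14.6%. The medians were −0.14 and −0.22 in place of −0.22 and −0.10 by label. Of the 27 calls by label in KO1 18 were made here too, and of the 17 in KO2 12. Among the members called both ways in both were Atp5a1 (here −0.52 and −0.50), Atp5k (−1.02 and −0.77) and Uqcrq (1.08 and 0.69). For the libraries labelled KO1 Myc, Uqcrh was at −0.71, Cox7a2 at −0.46, Ndufaf4 at 0.51 and Uqcrc2 at 0.31, all called, and Sdhc at −0.31 (adjusted p = 0.0103) was not.

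With the Myc vector in all groups, the share of members called lower in the knockout lines was near that of all genes, and fewer were called higher. In the libraries labelled KO1 Myc against those labelled WT Myc, 1 of the 96 members was higher and 15 (15.6%) were lower, against 12.6% and 12.5% of all genes, with a median of −0.18. In KO2, 4 were higher and 16 (16.7%) lower, against 17.2% and 18.0% of all genes, with a median of −0.17. Both share the libraries labelled WT Myc. Without replicate 1 of that label the medians were −0.06 and −0.07, and without replicate 2 they were −0.29 and −0.24, with 42 and 47 members called; the counts were 10 without replicate 2 labelled KO1 Myc and 11 without replicate 1 labelled KO2 Myc. Both fell to 6 when each pair of groups was fitted alone. Ndufa4 was at 140.0 and 124 CPM (WT Myc), 93.2 and 84.6 (KO1 Myc) and 86.8 and 94.9 (KO2 Myc), lower, at −0.57 ± 0.0747 (adjusted p = 2.02e-05) and −0.54 ± 0.0744 (adjusted p = 1.96e-05). Cox7b2 (mm9 chr5:71834063-71939444) was at 31.9 and 27.8 CPM (WT Myc), 19.5 and 17.2 (KO1 Myc) and 15.5 and 14.8 (KO2 Myc), lower, at −0.70 ± 0.0961 (adjusted p = 3.15e-05) and −0.98 ± 0.0981 (adjusted p = 6.32e-07). Ndufa8, an accessory subunit of complex I, was lower, at −0.47 and −0.51 (adjusted p = 0.000584 and 0.00021). In KO1, Sdhc (−0.56 ± 0.0632, adjusted p = 4.17e-06), Atp5b (−0.44 ± 0.0509, adjusted p = 6.14e-06) and Cox5b (−0.45) held without each library, and in KO2 so did Cox6a1 (−0.43 ± 0.0819, adjusted p = 0.000408). Atp5a1 was higher, by 0.33 ± 0.05 (adjusted p = 8.99e-05) and 0.29 ± 0.05 (adjusted p = 0.000154).

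**Figure D4:**
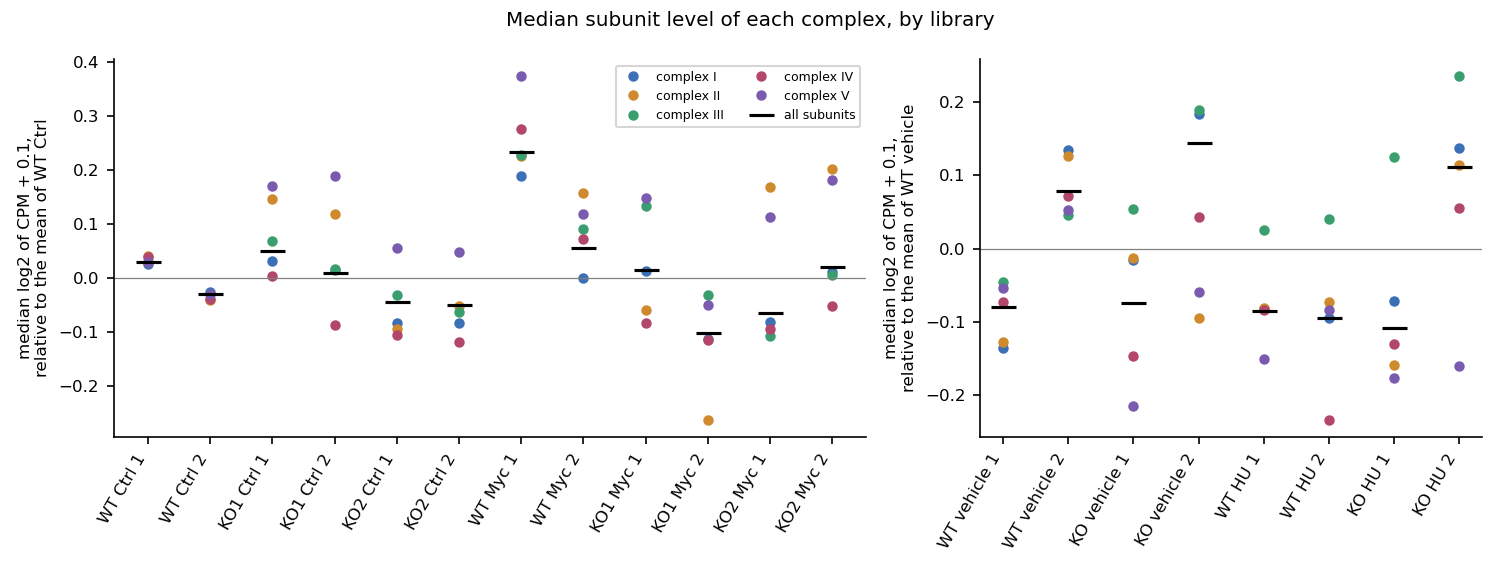
Median over the subunits of each complex of log2(CPM + 0.1) in each library, relative to the mean of WT Ctrl (left, Myc experiment) or of WT vehicle (right, hydroxyurea experiment); coloured points are complexes I to V and black bars all subunits. The bars lie between −0.1 and 0.23 on the left, where the highest is replicate 1 labelled WT Myc, and between −0.11 and 0.14 on the right. There the replicates of each group other than WT HU lie as far apart as the groups.

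In the hydroxyurea experiment fewer members passed. In KO against WT without drug, 6 of 94 members were higher and 4 lower, against 6.29% and 5.74% of all genes, with a median of −0.04. With hydroxyurea, 3 were higher and 2 lower, against 5.75% and 5.25% of all genes, with a median of 0.09. Without drug the called subunits were 1 higher and 2 lower in complex I, 1 higher in complex III, 2 higher in complex IV and 1 lower in complex V. Cox7b2 was at 16.3 and 15.4 CPM (WT vehicle) and 40.2 and 33.1 (KO vehicle). Both KO libraries were above both WT libraries, with a difference of 1.20 ± 0.279 (adjusted p = 0.0018), and this was the sole call of the comparison that held without each library. With hydroxyurea it was at 12.1 and 13.2 CPM (WT HU) and 26.2 and 21.3 (KO HU), a difference of 0.91 ± 0.291 (adjusted p = 0.0294), a call that was lost without any of the 4 libraries (highest adjusted p = 0.24). In the Myc experiment with the Ctrl vector the same gene differed by −0.32 (adjusted p = 0.00765) in KO1 and by −0.11 (adjusted p = 0.324) in KO2, so that its direction was not the same in the 2 experiments, and the call in KO1 was lost without 3 of 4 libraries, WT Ctrl replicate 1 and both of KO1 Ctrl (highest adjusted p = 0.0952).

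Atp5o, the OSCP subunit that ties the peripheral stalk to the F1 head, was at 62.5 and 66.2 CPM (WT vehicle), 48.0 and 40.4 (KO vehicle), 58.9 and 55.4 (WT HU) and 38.2 and 37.9 (KO HU), lower in KO, at −0.55 ± 0.189 (adjusted p = 0.0452) and −0.59 ± 0.191 (adjusted p = 0.0347). The KO libraries lay below the WT libraries in each condition, but the call without drug was lost without WT vehicle replicate 1, WT vehicle replicate 2 or KO vehicle replicate 2 (highest adjusted p = 0.283), and that with drug without any of the 4 libraries (highest 0.222). Ndufv2, the iron-sulfur partner of Ndufv1 in complex I, was at 53.5 and 59.9 CPM (WT HU) and 96.5 and 89.3 (KO HU) with hydroxyurea, higher in KO by 0.71 ± 0.161 (adjusted p = 0.00124), and this was lost without WT HU replicate 1 (adjusted p = 0.062). Ndufv1 was lower in KO without drug (−0.53 ± 0.164, adjusted p = 0.025), at 92.5 and 98.1 CPM (WT vehicle) and 59.0 and 72.8 (KO vehicle), and lost its call without WT vehicle replicate 1, WT vehicle replicate 2 or KO vehicle replicate 1 (highest adjusted p = 0.189). Ndufaf4 was higher in KO without drug (0.58, adjusted p = 0.0483) and Ndufaf7 lower (−0.90, adjusted p = 0.0437), each lost without any of the 4 libraries (highest adjusted p = 0.223 and 0.212). Both directions are opposite to those given above for KO1 with the Ctrl vector. Uqcrh and Atp5a1, which were higher in both knockout lines of the Myc experiment, differed here by 0.27 (adjusted p = 0.341) and −0.19 (adjusted p = 0.231) without drug. Uqcrc2, lower in both lines, was at 129.8 and 100.4 CPM (WT vehicle) and 152.9 and 162.4 (KO vehicle). It is the subunit of complex III called higher without drug, so that its direction was opposite here. That call did not hold without each library. Uqcrq, also lower in both lines of the Myc experiment, was at 82.2 and 101 CPM (WT vehicle) and 88.2 and 103.6 (KO vehicle). Atp5j, higher in both lines, was at 121.7 and 97.7 CPM (WT vehicle) and 89.85 and 85.9 (KO vehicle). Atp5mpl, also higher there, was at 42.0 and 57.9 CPM (WT vehicle) and 28.5 and 36.75 (KO vehicle). Without 1 library in turn, 4 to 7 members were called without drug (4 without KO vehicle replicate 1 or 2, and 5 without WT vehicle replicate 2) and 0 to 3 with it. The latter were 0 without WT HU replicate 1, 2 without KO HU replicate 1, 3 without WT HU replicate 2 and 1 without KO HU replicate 2, where the median turned from 0.09 to −0.03. DESeq2 called 1 member without drug and 2 with it.

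Hydroxyurea itself was followed by few calls. In WT, 1 member rose and 3 fell, against 6.39% and 3.44% of all genes, with a median of −0.13. In KO, none rose and 1 fell, against 4.65% and 1.80% of all genes, with a median of −0.05; 5 members had an unadjusted p below 0.05, and DESeq2 called 0. Uqcrq was at 82.2 and 101 CPM (WT vehicle) and 122 and 147 (WT HU), a rise of 0.55 ± 0.145 (adjusted p = 0.00692), and its groups did not overlap. Atp5h, subunit d of the peripheral stalk, fell with a log2 fold change of −0.59 (adjusted p = 0.0226), Atp5g3 with −0.42 (adjusted p = 0.0196) and Ndufaf7 with −0.91 (adjusted p = 0.0425). In KO the call was Ndufaf4, at 65.0 and 58.1 CPM (KO vehicle) and 32.9 and 43.5 (KO HU), with −0.69 (adjusted p = 0.0222). None of these calls held without each library. That of Uqcrq was lost without WT vehicle replicate 1 or WT HU replicate 2 (highest adjusted p = 0.247), those of Atp5h and Ndufaf7 without any of the 4 (highest 0.274 and 0.35), that of Atp5g3 without WT vehicle replicate 2, WT HU replicate 1 or WT HU replicate 2 (highest 0.571) and that of Ndufaf4 without KO vehicle replicate 1 or KO HU replicate 1 (highest 0.375). In WT 2 members were called without WT vehicle replicate 1, 1 without WT HU replicate 1 and 0 without WT HU replicate 2, and in KO 0 without KO vehicle replicate 1 or KO HU replicate 1. By edgeR's test of the interaction, the response to hydroxyurea differed between KO and WT in 0 members, against 0.0714% of all genes; 4 members had an unadjusted p below 0.05, and DESeq2 called 0. Replicate 2 was above replicate 1 in 62 of 92 members in WT vehicle and in 65 of 90 in KO vehicle, by medians of 0.16 and 0.21, and the part of this in the results was not tested.

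**Figure D5:**
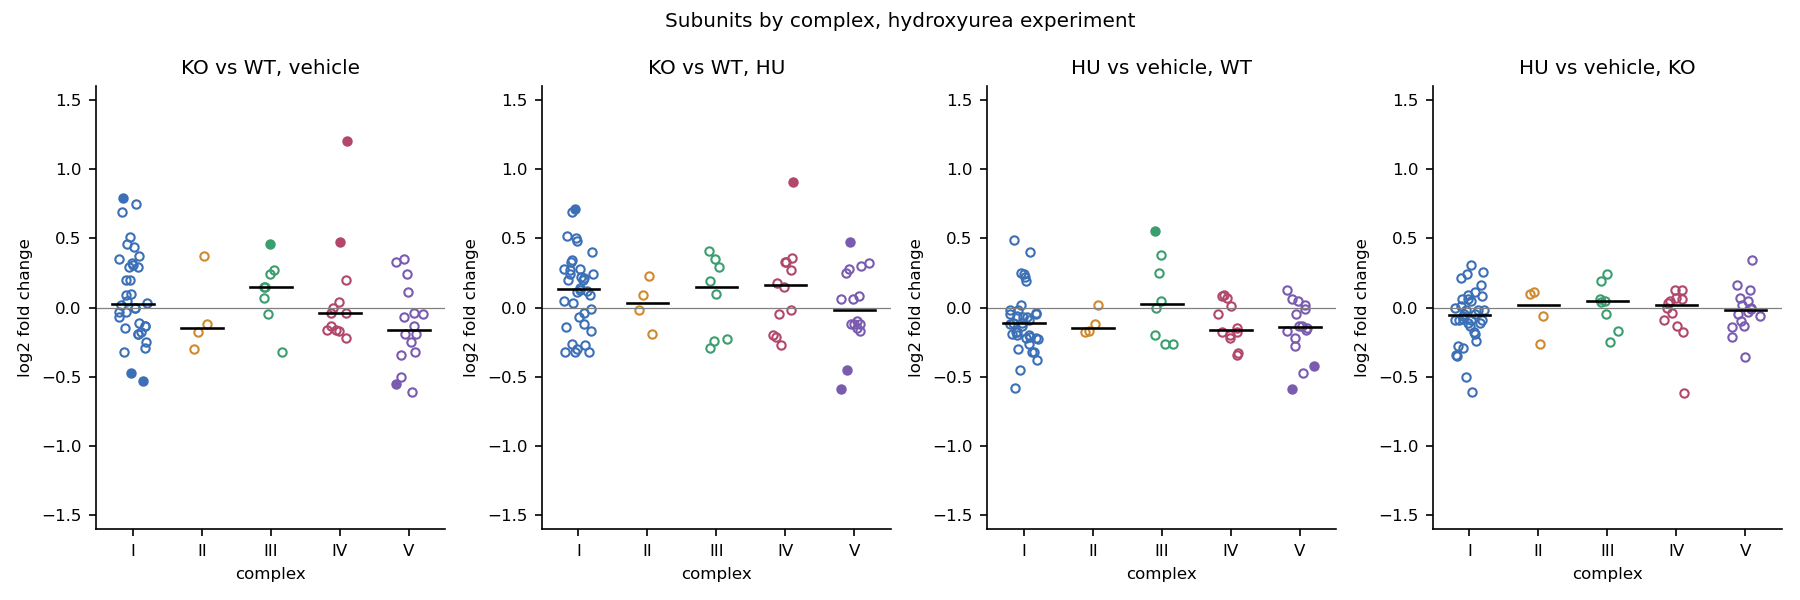
Log2 fold change (y axis) of each subunit in the hydroxyurea experiment, by complex (x axis), for KO against WT without and with hydroxyurea and for hydroxyurea against vehicle in WT and KO. Filled points passed an adjusted p below 0.05, open points did not and bars are medians; at most 3 subunits of any complex are filled in a panel.

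Of 34 measured assembly factors that carry other names, 4 rose (11.8%) and 10 fell (29.4%) in KO1 with the Ctrl vector (median −0.15), against 25.5% and 26.7% of all genes, and 1 rose (2.94%) and 10 fell in KO2 (median −0.16), against 23.3% and 26.6%. The shares that fell were near those of all genes. Cox17, a copper chaperone for complex IV, was at 59.0 and 60.3 CPM (WT Ctrl), 29.9 and 30.1 (KO1 Ctrl) and 28.9 and 32.8 (KO2 Ctrl), lower, at −0.99 ± 0.103 (adjusted p = 3.8e-07) and −0.95 ± 0.102 (adjusted p = 6.68e-07). Timmdc1, an assembly factor of complex I, was lower, at −0.77 and −0.85, Tmem70, which helps to build complex V, at −0.64 and −0.75, Surf1, of complex IV, at −0.63 and −0.58, and Lrpprc, which stabilises mitochondrial mRNAs, at −0.55 and −0.54. Pet100, of complex IV, was higher by 0.80 and 0.85, at 2.32 to 6.83 CPM. In the hydroxyurea experiment none of the 34 passed in any comparison. Their calls were not recomputed without 1 library.

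The 13 subunits encoded in mitochondrial DNA were counted too, although an mRNA selection step can catch them unevenly. In KO1 3 rose (23.1%) and none fell, against 25.5% and 26.7% of all genes, and in KO2 5 rose (38.5%) and none fell, against 23.3% and 26.6%. In the libraries labelled WT Myc against WT Ctrl 3 rose and none fell, against 21.6% and 22.7%. COX3, a catalytic-core subunit of complex IV, was at 1274 and 1353 CPM (WT Ctrl), 2259 and 1914 (KO1 Ctrl), 2075 and 1849 (KO2 Ctrl), 2519 and 2388 (WT Myc), 3174 and 2727 (KO1 Myc) and 3143 and 2841 (KO2 Myc), higher by 0.67 ± 0.0861 (adjusted p = 4.48e-06) in KO1 and by 0.90 ± 0.0863 (adjusted p = 3.12e-07) in the libraries labelled WT Myc. ND1, a membrane core subunit of complex I, was at 1108 and 1348 CPM (WT Ctrl), 1849 and 1596 (KO1 Ctrl) and 2209 and 1795 (KO2 Ctrl).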

How the data were processed

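RNA-seq was made from total RNA of 20 libraries, 12 of the Myc experiment and 8 of the hydroxyurea experiment, with an NEBNext Ultra kit, which the labels give as the Ultra II RNA kit and the study's methods as the Ultra RNA kit, and strand use is not given in the sources used here. Per the submitters' processing notes the tools were bcl2fastq 2.20, FastQC 0.11.5, STAR 2.5.4 and edgeR 3.26.8, with the mouse build mm9; the counting tool and annotation are not given in the sources used here. The authors deposited a table of whole-number counts per gene for each experiment. For the Myc experiment the file name calls these counts normalized, but the column totals differ as raw counts do. Of counts from 1 to 50, 48.4% were even in the Myc experiment and 71.9% in the hydroxyurea experiment, and for the latter an alternative with halved counts was run. Rows without a gene symbol (298 and 168, holding 1.48% and 1.4% of the counts) were kept in library totals. The authors' own test tables, which hold fold changes and p-values, were not used.

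Each experiment was fitted alone with all its libraries in edgeR 4.0.16 (R 4.3.3) with TMM scaling (factors 0.958 to 1.02 and 0.982 to 1.02), its filter on low counts, which removed no gene, and the quasi-likelihood test, checked on simulated data. The common biological coefficient of variation was 0.0498 and 0.102. Adjusted p-values are Benjamini-Hochberg values over all 13107 or 11210 genes. Where a member had at most 10 counts in each library of a group, the ratio of summed counts with an exact 95% interval was taken in place of the fitted fold. Gene positions are mm9 (GENCODE) and exonic length is the union of annotated exons, known for 94 of 97 members. Promoters are from RefSeq GRCm38.p6 and are not placed on mm9.

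Members and lists were chosen with earlier results of these data known. Named were, in each comparison, the 4 largest rises and falls among called members with groups that did not overlap and a mean of at least 5 CPM, together with Ndufs1, Ndufv1, Sdha, Sdhb, Uqcrc1, Cyc1, Cox4i1, Cox5a and Atp5b, the isoform families, Trim33 and Myc. Other members were named after their values were seen, where their calls held without each library or to describe a complex. The values of 1 member are not reported here, and it remains in the counts and medians. Alternatives were DESeq2 1.42.0, other scaling, other filters, the compared groups alone, a replicate block and leaving out each library, where the lone library of a group is assumed to vary like the others. Chosen after seeing the data was the response of each knockout line to the Myc vector against the Ctrl libraries of the other line.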

Additional observations from a re-analysis of the deposited data

Results flagged for a closer look

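The results below stand here because an effect was tested as different between 2 groups, by edgeR's interaction test (Myc experiment, adjusted p below 0.01) or, for the knockout lines, by their direct comparison. The response to the Myc vector differed from that in WT in 27 members for KO1 and in 17 for KO2, and both share the WT libraries. In KO1 the interaction was 0.88 for Uqcrq, 0.63 for Ndufaf4, 0.43 for Uqcrc2, −1.06 for Uqcrh, −0.93 for Atp5k, −0.79 for Cox7a2 and −0.77 for Ndufb2, an accessory subunit of complex I. In KO2 it was 0.90 for Uqcrq, 0.43 for Cox7a2l, −0.86 for both Cox7b2 and Atp5k, −0.75 for Ndufb2 and −0.69 for Atp5mpl. These values are by label. The libraries labelled KO1 Myc lie nearer to KO2 Ctrl and those labelled KO2 Myc nearer to KO1 Ctrl, and against the Ctrl libraries of the other line 20 and 17 members were called, with Uqcrq at 1.08 and 0.69, Uqcrh at −0.71 and Cox7a2 at −0.46 for KO1, and Cox7a2l, no longer called, at 0.14 for KO2. The call of Ndufb2 in KO1 was lost without WT Ctrl replicate 1 or 2, KO1 Ctrl replicate 1 or KO1 Myc replicate 2 (highest adjusted p = 0.0252), that of Ndufb2 in KO2 without WT Ctrl replicate 1 or 2, KO2 Ctrl replicate 1 or 2, or KO2 Myc replicate 1 or 2 (highest 0.0315), and that of Cox7a2l without WT Ctrl replicate 1 or 2, KO2 Ctrl replicate 1 or KO2 Myc replicate 2 (highest 0.0144).

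Between KO2 and KO1 with the Ctrl vector 10 members differed, all lower in KO2. Among them Ndufa12 was at −0.38, Ndufa13 at −0.36, Uqcrh at −0.35 and Cox7a2 at −0.34 on the log2 scale, each lost without at least 3 of the 4 libraries. No group has more than 2 libraries, so that no group could be searched for a library far from the rest.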

How the results depend on the processing

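Of the medians over members, 106 of 110 moved by less than the spread between replicates under the alternatives that kept all libraries, and of 95 counts of called members 82 stayed within 1.5 times. With only the compared groups in the fit, counts were 21 in KO2 against KO1 (3 higher), 14 for the Myc vector in WT, 29 in KO1 and 28 in KO2, 6 in each knockout line against WT with the Myc vector, 5 in KO against WT without drug and 10 with hydroxyurea. DESeq2 called 1 in KO against WT without drug, 2 with it, 1 for hydroxyurea in WT and 0 in KO, and a filter at 5 CPM in every library left 6 in KO against WT without drug. Less the trend over exonic length, medians were 0.02 for the Myc vector in WT, −0.05 in KO2, and −0.11 and −0.03 for the interactions of KO1 and KO2. The cause of these shifts was not tested.

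Without 1 library in turn, counts ranged from 20 to 23 in KO1 and 18 to 23 in KO2 against WT with the Ctrl vector, 1 to 4 in KO2 against KO1, 11 to 47 for the Myc vector in WT, 9 to 12 in KO1, 7 to 11 in KO2, 10 to 42 and 11 to 47 in KO1 and KO2 against WT with the Myc vector, 16 to 43 and 8 to 30 for the interactions, 4 to 7 in KO against WT without drug, 0 to 3 with it, 0 to 3 for hydroxyurea in WT and 0 to 1 in KO. Medians ranged from 0.06 to 0.24 for the Myc vector in WT, from −0.29 to −0.06 and from −0.24 to −0.07 in KO1 and KO2 against WT with the Myc vector, from −0.33 to −0.14 and from −0.21 to −0.02 for the interactions, and from −0.03 to 0.17 in KO against WT with hydroxyurea, where the sign turned. Of 148 named genes in comparisons that called them, 40 lost the call under at least 1 other alternative and 65 without at least 1 library, and under these none changed sign. Against the Ctrl libraries of the other knockout line, chosen after seeing the data, 10 members were called for the Myc vector in KO1 and 7 in KO2, the medians were 0.01, where the sign turned, and −0.07, those of the interactions −0.14 and −0.22, and Atp5b (0.06) and Trim33 (−0.11) turned sign in KO1. In this setting the Ctrl libraries themselves differ.

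Over all genes, same-numbered libraries showed little shared deviation (correlations of −0.15 to 0.19 in the Myc experiment and −0.01 to 0.05 in the hydroxyurea experiment). No pairing by number is seen at that level. A shared deviation of the members alone was not tested. With the replicate number as a block, 37 members were called in KO1 against WT with the Ctrl vector in place of 34, and no count moved by over 1.5 times. At 2315327 to 3082202 counts per library the hydroxyurea experiment could miss changes of the size seen in the Myc experiment.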

Other observations

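Enzymes that feed the chain and factors that act on mitochondrial genes were measured beside the subunits. Of 17 genes of the citric acid cycle and pyruvate dehydrogenase, 2 rose (11.8%) and 6 fell (35.3%) in KO1 against WT with the Ctrl vector, where 25.5% of all genes rose and 26.7% fell, and 3 rose (17.6%) and 6 fell in KO2, where the shares were 23.3% and 26.6%. Dld, the shared dihydrolipoamide dehydrogenase, was at 236 and 241 CPM (WT Ctrl), 119 and 119 (KO1 Ctrl) and 118 and 119 (KO2 Ctrl), with both WT libraries above the 4 knockout libraries, and differed by −1.0 ± 0.0615 (adjusted p = 6.54e-10) and −1.01 ± 0.0614 (adjusted p = 9.3e-10). Pdhb, a subunit of pyruvate dehydrogenase, was at 103 and 98.1 CPM (WT Ctrl), 61.6 and 62.0 (KO1 Ctrl) and 67.8 and 65.1 (KO2 Ctrl) and differed by −0.70 and −0.59 (adjusted p = 1.93e-07 and 1.31e-06). Other genes of the list went the other way. Ogdh was at 155.6 and 154.0 CPM (WT Ctrl), 216.2 and 217.4 (KO1 Ctrl) and 219.7 and 228.3 (KO2 Ctrl). Suclg2 was at 71.1 and 67.9 CPM (WT Ctrl), 104.9 and 106.9 (KO1 Ctrl) and 94.5 and 95.9 (KO2 Ctrl). Both lines share the WT Ctrl libraries.

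Of 17 regulators of mitochondrial genes and of mitochondrial DNA upkeep, 9 rose and none fell with the Myc vector in KO2, where 20.2% of all genes rose and 18.6% fell. In WT 3 rose and 3 fell, against 21.6% and 22.7% of all genes. In KO1 3 rose and 2 fell, against 17.9% and 18.2%. These counts are by label. Against the Ctrl libraries of the other line 9 rose and 1 fell for the libraries labelled KO2 Myc, with 13.6% of all genes higher and 15.2% lower. For those labelled KO1 Myc 4 rose and 1 fell, with 15.3% and 14.3% of all genes. The 9 rises against KO1 Ctrl include Ppargc1b, which had very few reads. It was at 0.2 and 0.13 CPM (KO1 Ctrl) and 0.65 and 1.2 (KO2 Myc). Tfam, which packs and transcribes mitochondrial DNA, was at 71.9 and 76.2 CPM (KO2 Ctrl) and 121 and 134 (KO2 Myc), a rise of 0.79 ± 0.0622 (adjusted p = 3.75e-08), and Twnk, the mitochondrial helicase, at 38.4 and 38.0 CPM (KO2 Ctrl) and 67.9 and 70.0 (KO2 Myc), a rise of 0.85 ± 0.071 (adjusted p = 6.95e-08). Against KO1 Ctrl the 2 genes rose by 0.50 and 0.72 (adjusted p = 9.82e-06 and 8.98e-07). In the hydroxyurea experiment Ppargc1a, a coactivator of mitochondrial genes, was at 15.4 and 11.3 CPM (WT vehicle), 4.88 and 2.00 (KO vehicle), 24.2 and 20.1 (WT HU) and 4.59 and 6.32 (KO HU), lower in KO, at −1.98 ± 0.475 (adjusted p = 0.00274) without drug and at −2.02 ± 0.415 (adjusted p = 0.000371) with it. In the Myc experiment the same gene was at 3.60 and 5.54 CPM (WT Ctrl), 8.45 and 8.61 (KO1 Ctrl) and 6.27 and 5.66 (KO2 Ctrl), with differences of 0.90 (adjusted p = 0.000297) and 0.38 (adjusted p = 0.0875). Gabpa, the DNA-binding subunit of GABP, was lower in KO in the hydroxyurea experiment, at −0.84 and −0.62 (adjusted p = 6.16e-06 and 0.000822). In the Myc experiment Gabpa was at 109.5 and 114.6 CPM (WT Ctrl), 130.5 and 138.3 (KO1 Ctrl) and 124.2 and 135.0 (KO2 Ctrl). Its direction was thus opposite there, with the libraries of both knockout lines above those of WT. These lists were chosen with earlier results known, and their calls were not recomputed without 1 library.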
